A study of Oryza sativa with 6 samples.

Results

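The genes described here are the 8 germin-like protein genes named GER1 to GER8 and the NADPH oxidase gene RBOHB of rice. Enzymes of both families release reactive oxygen species outside the plasma membrane. The genes were found by symbol or synonym in the RefSeq gene table joined to the array's gene annotation, which gave 9 genes of 17905 and 11 of the 22436 probe sets with 1 listed gene. GER8 has 3 probe sets and each of the other 8 genes has 1. RNA was hybridised to Affymetrix rice arrays, where several short probes form the probe set of a transcript, and came from young leaves of 11-day-old seedlings of the indica variety Minghui63, grown on medium at 25 °C with 16 h of light and 8 h of dark. There were 3 arrays from untransformed control plants and 3 from plants with an RNA interference (RNAi) construct against OsSRT1, a sirtuin-type deacetylase gene, built as inverted repeats of 412 bp of its 3' untranslated sequence. The titles call the RNAi samples transgenic lines LM1, LM2 and LM3, which are replicates 1, 2 and 3 here, and do not say outright whether these are separate lines. Leaves were taken before lesions appeared on the RNAi plants, and the comparison asks how genes for hydrogen peroxide producers stood before visible cell death.

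Germin-like proteins are small glycoproteins of the plant cell wall and belong to the cupin family. Germin itself, from wheat and barley, is an oxalate oxidase that releases hydrogen peroxide from oxalate, while several germin-like proteins act as superoxide dismutases, which turn superoxide into hydrogen peroxide. Respiratory burst oxidase homologues such as RBOHB sit in the plasma membrane, pass electrons from NADPH to oxygen outside the cell and so make the superoxide. Calcium binding, calcium-dependent protein kinases and small GTPases of the Rac family switch these oxidases on at the protein level, so a transcript level does not give their activity. In rice, a row of germin-like genes on chromosome 8 is known as part of a locus for quantitative resistance to rice blast.

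The genes were proposed with values of this same comparison in view, so their differences between groups are given as a description and without a test. Signals are probe set intensities scaled to a common trimmed mean of 500, and log2 differences are RNAi minus control after 16 was added to each signal, with the standard error of the fit across all probe sets. One array stood apart from its group. The median absolute log2 distance of RNAi replicate 1 from the mean of the other 2 RNAi arrays was 0.29 over the 28597 tested probe sets, against 0.19 to 0.22 for each other array and the remaining 2 of its group. Differences that leaving out this array moved by over 1.5 times are given with and without it, here or with the processing alternatives. The control arrays share 1 wash run and the RNAi arrays a later one, so the effect of the run and that of the group cannot be told apart. In bulk leaf RNA, fewer cells of a type and less RNA per cell cannot be told apart either. The 4 leaf markers matched by name, RBCS, CAB2R, RCA and PORB, had a summed signal of 100773 to 120536 in the controls and 94664 to 110025 in the RNAi arrays. Of 4 root markers, the silicon transporter gene LSI2 and the nitrate transporter gene NRT2.2 lay below the signal filter. The summed signal of the root list was 1604 to 1870 in the controls and 1173 to 1748 in the RNAi arrays. Within it, LSI1 had 1573 to 1794 in the controls and 842 to 1396 in the RNAi arrays. These did not overlap, as at 22.4% of all tested probe sets (log2 difference -0.55, adjusted p = 0.2 in limma's fit). Of 8 seed storage protein markers, 5 lay below the filter. The glutelin gene GLUA1 never exceeded 2.48, but the glutelin gene GLUA2 had 1243 to 1437 over the 6 arrays. The sum of the list was 6262 to 6447 in the controls and 4129 to 7391 in the RNAi arrays. The phosphate transporter gene PHT1;11 was the only one of these 16 markers past the threshold, from 17.7 to 28.7 in the controls to 220 to 321 in the RNAi arrays (adjusted p = 0.000727 in limma's fit). RNAi replicate 1 was the lowest of the 6 arrays for CAB2R at 18862, for the root marker LSI1 at 842 and for the seed globulin gene GLB at 2568, which was 4769 or more in the others. The part of these lists in the results below was not tested.

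Between groups, GER1 was the one gene of the set whose RNAi signals all lay above the control signals. The other germin-like genes and RBOHB overlapped between groups, and for most of them RNAi replicate 1 was the array with the least signal. Of 11 probe sets, 10 lay above the signal filter that left out the lower 50% of the array, and GER3 did not. At an adjusted p of 0.05 in limma's fit across all tested probe sets, 0 of 10 were higher in the RNAi arrays, as 1.09% of all tested probe sets were, and 0 of 10 were lower, as 1.01% were. At an unadjusted p under 0.05 there was 1 of 10, where the array as a whole had 15.6%. SAM at a q of 5% called 0, against 1.93% of all tested probe sets. The 10 log2 differences ran from -0.55 to 0.72 with a median of 0.02, beside a median of 0.03 over all tested probe sets, and 5 were above and 5 below 0. Since the members were chosen with this comparison known, nothing is read from these counts, and a value that misses the threshold does not show that the groups were alike.

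**Figure D1:**
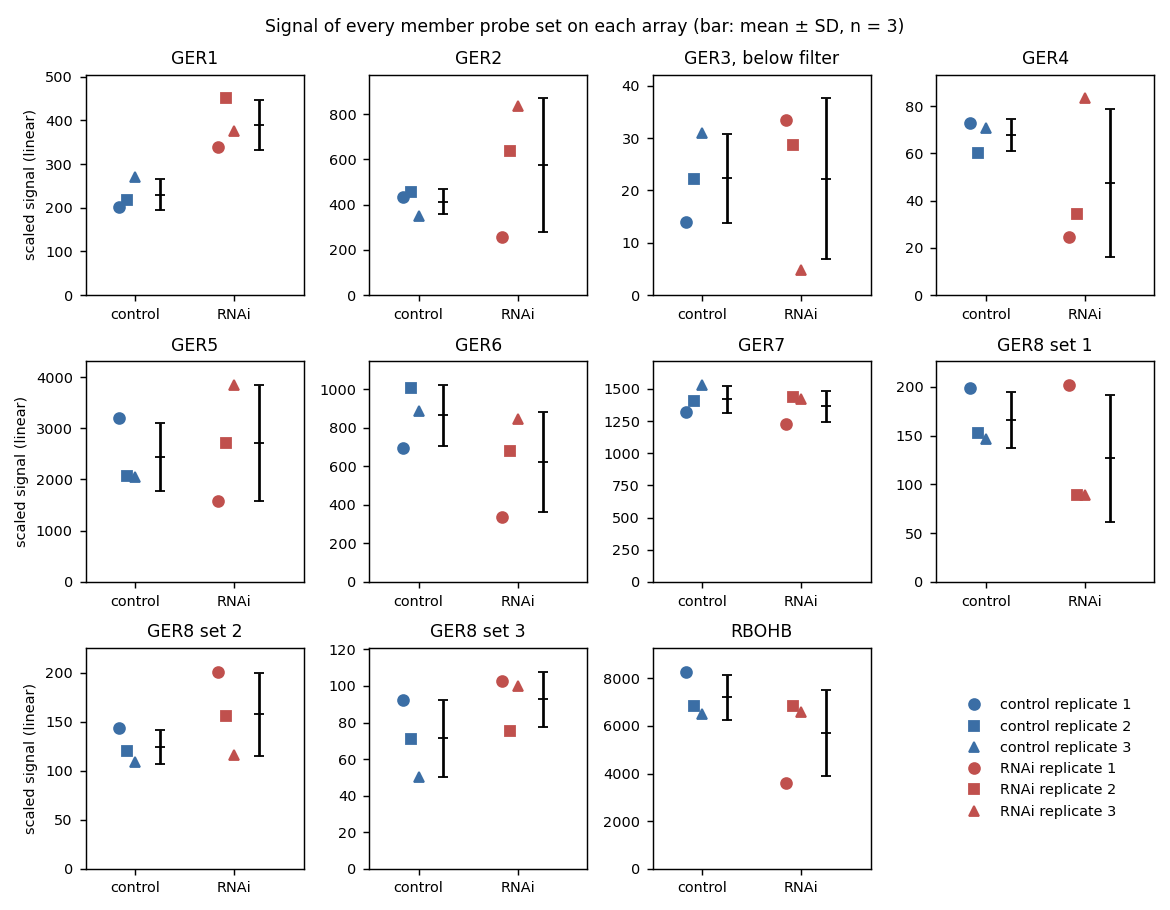
Scaled signal (linear axis from 0) of each of the 11 member probe sets on the 3 control arrays (blue) and 3 RNAi arrays (red), with a symbol for each replicate number and black bars for the mean ± SD of each group. Only in the GER1 panel do all red points lie above all blue ones, and RNAi replicate 1 (red circle) is the lowest red point for GER1, GER2, GER4, GER5, GER6, GER7 and RBOHB.

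RBOHB, the only NADPH oxidase gene that could be found by name on the array, had signals of 8267, 6847 and 6488 in control replicates 1, 2 and 3. In RNAi replicates 1, 2 and 3 it had 3604, 6842 and 6603. RNAi replicates 2 and 3 thus fell inside the control range and only RNAi replicate 1 lay below it. The group means were 7200 ± 941 (SD, n = 3) and 5683 ± 1804, a log2 difference of -0.39 ± 0.23 (SE). Without RNAi replicate 1 the difference was -0.09. The signal of RNAi replicate 1 was 53.6% of the mean of the other 2 RNAi arrays. The name of the probe set marks it as one that reads several transcripts of RBOHB, so which transcript the signal comes from is not known.

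GER1, GER2, GER3 and GER6 are neighbours on chromosome 8. In the RefSeq table of the japonica assembly ASM3414082v1 they stand in the order GER3, GER2, GER1 and GER6. Further along is a germin-like gene named GLP2 (also RGLP1 and RGLP2), which is no member. The gene just before it also carries the name GLP2 but has no probe set, so GLP2 here means the gene with probe sets. This stretch holds 10 genes from GER3 to GLP2, of which 5 have a probe set, and the other 5 were not analysed here. These genes are close relatives, and probes designed on a japonica sequence may read more than 1 of them in an indica variety, which was not tested.

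GER1 had signals of 202, 217 and 271 in control replicates 1, 2 and 3 and of 339, 451 and 377 in RNAi replicates 1, 2 and 3. The groups did not overlap, as was so at 22.4% of all tested probe sets (12.5% with the RNAi arrays higher). The means were 230 ± 36.2 and 389 ± 56.9 (SD, n = 3), a log2 difference of 0.72 ± 0.19 (SE), which stayed between 0.61 and 0.84 when each array was left out in turn. The spread within the RNAi arrays was as small as in the controls, with SDs of 0.2 and 0.21 on the log2 scale, so GER1 did not share the split of RNAi replicate 1 from the others that its neighbours had.

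GER2 had 432, 458 and 351 in the control arrays and 255, 636 and 836 in RNAi replicates 1, 2 and 3. RNAi replicate 1 lay below all controls and the other 2 RNAi arrays above all of them. The log2 difference of 0.32 ± 0.37 (SE) therefore averaged arrays on opposite sides of the controls. It was 0.8 without RNAi replicate 1 and -0.02 without replicate 3 of that group. The SD of GER2 was 0.87 in the RNAi arrays and 0.19 in the controls on the log2 scale, the widest gap between groups among the tested members.

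GER6 had 698, 1009 and 890 in the controls and 339, 680 and 846 in RNAi replicates 1, 2 and 3. Its RNAi arrays were lower on average, with a log2 difference of -0.55 ± 0.31 (SE), and RNAi replicate 3 lay inside the control range. Without RNAi replicate 1 the difference was -0.17. GER3 had 13.9, 22.2 and 31 in the controls and 33.4, 28.7 and 4.74 in the RNAi arrays. All of these values lie under 36.1, the lowest mean signal of a tested probe set, so no difference is given for GER3.

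The neighbour GLP2, measured by a pair of probe sets, followed the pattern of GER6 more than that of GER1. Its leading probe set had 1467, 2053 and 1608 in the controls and 455, 1751 and 1776 in RNAi replicates 1, 2 and 3. Its other probe set had 568, 743 and 582 in the controls and 246, 682 and 705 in the RNAi arrays. In both, RNAi replicate 1 was the lowest of the 6 arrays while RNAi replicates 2 and 3 lay within the control range. GLP2 did not pass in limma's fit (log2 difference -0.58 ± 0.45, adjusted p = 0.583, and 0.06 once RNAi replicate 1 was left out). Along the row of genes, the log2 distance of RNAi replicate 1 from the mean of RNAi replicates 2 and 3 was -1.46 for GER2, -0.27 for GER1, -1.13 for GER6 and -1.92 for the leading probe set of GLP2.

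**Figure D2:**
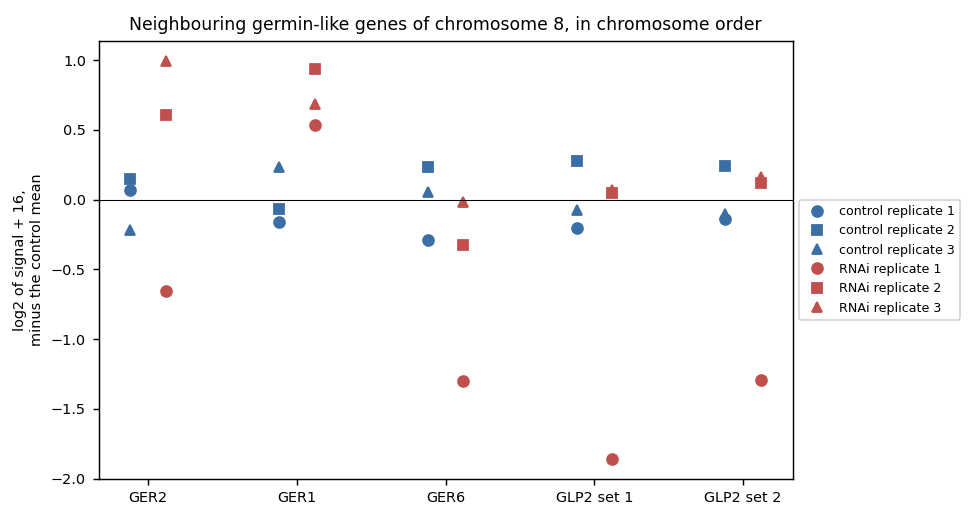
Log2 signal (16 added) minus the control mean for the germin-like genes of the chromosome 8 row that lie above the filter, in chromosome order, on the 3 control arrays (blue) and 3 RNAi arrays (red). RNAi replicate 1 (red circle) is the lowest of the 6 arrays for GER2, GER6 and both probe sets of GLP2, while for GER1 all 3 RNAi arrays lie above the controls.

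The other 4 germin-like genes lie apart from this row. GER5, also named OsGLP1, lies elsewhere on chromosome 8, and its product is known as a superoxide dismutase of the cell wall. It had 3209, 2070 and 2050 in the controls and 1572, 2718 and 3839 in RNAi replicates 1, 2 and 3. The RNAi arrays spanned the whole control range on both sides. The log2 difference was 0.09 ± 0.3 (SE), 0.43 without RNAi replicate 1 and -0.21 when RNAi replicate 3 was left out instead.

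GER4, on chromosome 1, had 72.9, 60.1 and 70.7 in the controls and 24.7, 34.5 and 83.4 in the RNAi arrays. RNAi replicates 1 and 2 were below all controls and RNAi replicate 3 above them. The log2 difference was -0.51 ± 0.38 (SE), -0.24 without RNAi replicate 1 and -0.88 when RNAi replicate 3 was left out instead. It also depended on the 16 added to each signal, with -0.69 when 1 was added and -0.28 when 64 was added.

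GER7, on chromosome 3, was the steadiest of the set. It had 1322, 1408 and 1530 in the controls and 1226, 1439 and 1425 in the RNAi arrays, which overlapped. The log2 difference was -0.06 ± 0.13 (SE), or 0.01 without RNAi replicate 1, and the SD on the log2 scale was 0.1 for the controls and 0.13 for the RNAi arrays. RNAi replicate 1 was the lowest array here too, at 85.6% of the mean of the other 2 RNAi arrays.

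GER8, on chromosome 1, was measured by 3 probe sets, whose names mark all of them as able to read other genes as well. Set 1, whose name ends in _s_at, had 198, 153 and 146 in the controls and 202, 89.6 and 88.6 in RNAi replicates 1, 2 and 3, a log2 difference of -0.43 ± 0.32 (SE), or -0.78 without RNAi replicate 1. Set 2, whose name ends in _x_at, had 143, 120 and 109 in the controls and 201, 156 and 116 in the RNAi arrays (0.29 ± 0.25, or 0.11 without RNAi replicate 1). Set 3, which also ends in _x_at, had 92.6, 71.2 and 50.3 in the controls and 103, 75.6 and 100 in the RNAi arrays (0.33 ± 0.29, or 0.27 without it). The probe sets disagreed in direction and all 3 overlapped between groups, so no direction is given for GER8. In all 3, RNAi replicate 1 was the highest of the 6 arrays, the reverse of RBOHB and of the other germin-like genes above the filter except GER1.

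**Figure D3:**
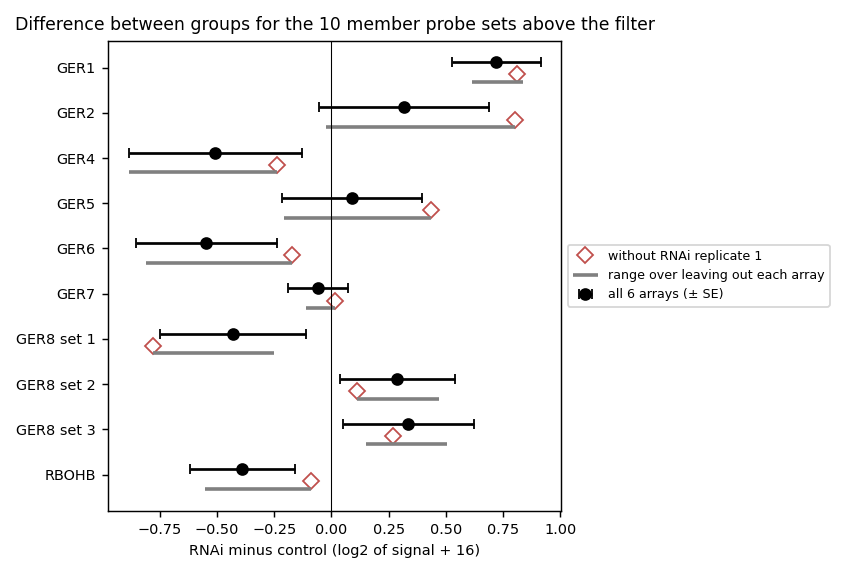
RNAi minus control (log2 of signal + 16) for the 10 member probe sets above the filter, with all 6 arrays (black points ± SE), without RNAi replicate 1 (open diamonds) and as the range over leaving out each array in turn (grey lines). The grey line of GER1 runs from 0.61 to 0.84, while those of GER2, GER5 and GER7 cross 0.

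Across the set, the spread between the RNAi arrays was wider than that between the controls. The SD on the log2 scale was larger in the RNAi arrays at 8 of 10 tested member probe sets, where 56.8% of all tested probe sets had this. The median SD of the members was 0.56 in the RNAi arrays and 0.2 in the controls, beside 0.24 and 0.2 over all tested probe sets. RNAi replicate 1 was the lowest of the 3 RNAi arrays at 7 of 10, where 42.7% of all tested probe sets had it lowest. It was the highest at the other 3, all of them GER8, where the share over the array was 33.2%. Its median absolute log2 distance from the mean of the other 2 RNAi arrays was 0.85 over the members and 0.29 over all tested probe sets. By this measure the member values were 0.54 for RNAi replicate 3, 0.33 for RNAi replicate 2 and 0.12 to 0.30 for the controls. For RNAi replicates 2 and 3 the mean of the other 2 arrays includes RNAi replicate 1. Their distances therefore do not show that either stood apart. RNAi replicate 1 was the lowest of all 6 arrays at 6 of 10, against 23.8% of all tested probe sets. These shares describe probe sets that share arrays and, in part, related sequences, and are not a test. What set RNAi replicate 1 apart was not tested.

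Genes with names were compared with RBOHB and with GER5, the germin-like gene with the highest mean signal, by the mean absolute difference of their log2 signals, each centred on its own mean over the 6 arrays. Of 2148 named genes compared, those nearest to RBOHB were LOGL3, HPT1 and the aquaporin gene PIP1-1, at 0.05, 0.07 and 0.08, where the median gene lay at 0.33. LOGL3 is of the family of cytokinin-activating enzymes, HPT1 encodes a homogentisate phytyltransferase of vitamin E synthesis, and PIP1-1 is a water channel of the plasma membrane. In all 3, as in RBOHB, RNAi replicate 1 was the lowest array, with 2471 for LOGL3 against 4393 to 5067 in the other 5 arrays. The genes were picked for their likeness to RBOHB over these same arrays, so this shared low array follows from the choice. The nearest to GER5 were the beta-tubulin gene OsTUB8, the cellulose synthase-like gene CSLA1 and the tonoplast water channel gene OsTIP2;2, at 0.12 for each, with a median of 0.41. These likenesses are over 6 arrays that fall into 2 groups, and they say nothing of shared function.

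The other genes around hydrogen peroxide that could be matched by name gave no call at this threshold with 1 probe set per gene. Of 55 such genes 49 lay above the filter, and 0 rose, 0 fell and 49 did not pass in limma's fit, where 2.33% of 14993 genes passed with 1 probe set for each. Of the 49, 10 had an unadjusted p under 0.05, where 15.6% of all tested probe sets had this. SAM called 0, against 1.93% of all tested probe sets. The median log2 difference was -0.05 over the 49 and 0.02 over all tested genes. No other NADPH oxidase gene and no polyamine oxidase gene was found by name.

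Rac GTPases and their partners act upstream of the oxidase. Among them 0 of 10 tested genes passed, 9 had a higher and 1 a lower mean in the RNAi arrays, and the median log2 difference was 0.16. OsRac1, the GTPase known to bind the amino-terminal part of RBOHB, had 309, 260 and 257 in the controls and 193, 421 and 402 in RNAi replicates 1, 2 and 3 (log2 difference 0.21 ± 0.29, adjusted p = 0.762 in limma's fit, and a difference of 0.56 without RNAi replicate 1). Here, too, RNAi replicate 1 was below all controls and the other 2 RNAi arrays above them. OsRac4, also named ROP4, had signals of 904, 801 and 825 in the controls and 1038, 1309 and 1300 in the RNAi arrays, which did not overlap (log2 difference 0.51 ± 0.14, adjusted p = 0.127). A second probe set of OsRac4 passed, with 413, 280 and 349 in the controls and 630, 686 and 642 in the RNAi arrays (log2 difference 0.9 ± 0.18, adjusted p = 0.0412 in limma's fit, 0.0925 with a replicate block, 0.172 when control replicate 2 was left out, and 0.0363 to 0.878 over all limma alternatives). The signals of OsRac7 were low, at 46.3, 34 and 34.3 in the controls and 80.5, 72.2 and 68.8 in the RNAi arrays. Its control signals lay near 36.1, the lowest mean signal of a tested probe set. The log2 difference of OsRac7 was 0.73 ± 0.28 (adjusted p = 0.251 in limma's fit). RACK1A had one of 0.16 (0.503) and OsRac6 one of 0.27 (0.506), which was 0.09 without RNAi replicate 1.

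Calcium-dependent protein kinases, which phosphorylate oxidases of this family, had 0 of 16 tested genes past the threshold, 12 with a lower and 4 with a higher mean in the RNAi arrays, and a median log2 difference of -0.12. CPK13 had 22587, 22676 and 20251 in the controls and 17942, 18287 and 17520 in the RNAi arrays, without overlap (log2 difference -0.28 ± 0.08, adjusted p = 0.137 in limma's fit). CPK5, CPK7 and CPK4 had log2 differences of -0.4, -0.51 and -0.42 (adjusted p = 0.191, 0.193 and 0.233), also without overlap, and CPK7 had -0.31 without RNAi replicate 1. A second probe set of CPK13 had 3911, 4177 and 3768 in the controls and 3626, 4610 and 3114 in the RNAi arrays, which overlapped. Its log2 difference was -0.08 ± 0.15 (SE, adjusted p = 0.835 in limma's fit). With 1 probe set per gene, 6 of the 16 kinase genes had groups that did not overlap, beside 22.4% of all tested probe sets.

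Superoxide dismutases, which make hydrogen peroxide from superoxide, included the gene with the largest log2 difference of the lists. The genes named here are of enzymes inside the cell, not of the superoxide that RBOHB releases outside it. The chloroplast enzyme gene sodCp had 1886, 1474 and 1637 in the controls and 1902, 4240 and 4671 in RNAi replicates 1, 2 and 3 (log2 difference 1.01 ± 0.3, adjusted p = 0.144 in limma's fit). RNAi replicate 1 lay just above the controls and the other 2 RNAi arrays far above them, and without RNAi replicate 1 sodCp passed (1.42, adjusted p = 0.00149, and 0.00149 to 0.839 over all limma alternatives). SODCC.2, a cytosolic enzyme gene, had 0.62 ± 0.19 (adjusted p = 0.158) and passed without RNAi replicate 1 (0.79, adjusted p = 0.0386, and 0.0386 to 0.987 over the alternatives), while SODCC.1 had 0.32 (0.437), or 0.53 without that array. The gene of the mitochondrial enzyme, sodA, had -0.15 (0.539). In all 4 the lowest RNAi array was RNAi replicate 1, as at 42.7% of all tested probe sets. In sodA it was at 97.8% of the mean of the other 2 RNAi arrays.

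Enzymes that remove hydrogen peroxide did not pass either. Among ascorbate peroxidases and the enzymes of their cycle 0 of 10 passed, with a median log2 difference of -0.06. The cytosolic ascorbate peroxidase gene APX2 had 15098, 15428 and 14983 in the controls and 4882, 13068 and 13198 in RNAi replicates 1, 2 and 3 (log2 difference -0.68 ± 0.33, adjusted p = 0.362 in limma's fit, and a difference of -0.21 without RNAi replicate 1). Its control signals were close together and RNAi replicate 1 was at 37.2% of the mean of the other 2 RNAi arrays. APX7, of the chloroplast, had 0.51 ± 0.17 (adjusted p = 0.195), APX5 had 0.34 (0.544) and APX8 had -0.19 (0.438). Without RNAi replicate 1, APX7 had 0.34 and APX8 -0.12. The catalase genes CatB and catA had -0.19 and -0.06 (adjusted p = 0.403 and 0.87 in limma's fit). The names of both probe sets mark them as able to read other genes as well. Other probe sets of CatB had -0.06, 0.21, 0.24 and 0.03. Those of catA had -0.06 and 0.18, the latter 0.48 without RNAi replicate 1. None of these passed, and no direction is given for either gene.

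The remaining producers and users of hydrogen peroxide gave no call. For glycolate oxidase genes, whose products release hydrogen peroxide in peroxisomes during photorespiration, 0 of 4 passed, and GLO1, GLO4, GLO5 and GLO3 had log2 differences of -0.12, -0.08, -0.05 and -0.12 (adjusted p = 0.589, 0.848, 0.862 and 0.87). Of 3 class III peroxidase genes matched by name, 2 were tested and 0 passed. One that the annotation names only peroxidase had 804, 638 and 650 in the controls and 1518, 799 and 1091 in the RNAi arrays (log2 difference 0.65 ± 0.23, adjusted p = 0.211 in limma's fit). In this gene RNAi replicate 1 was the highest array, as for GER8, and the difference without it was 0.42. PRX112 had -0.31 (0.713).

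**Figure D4:**
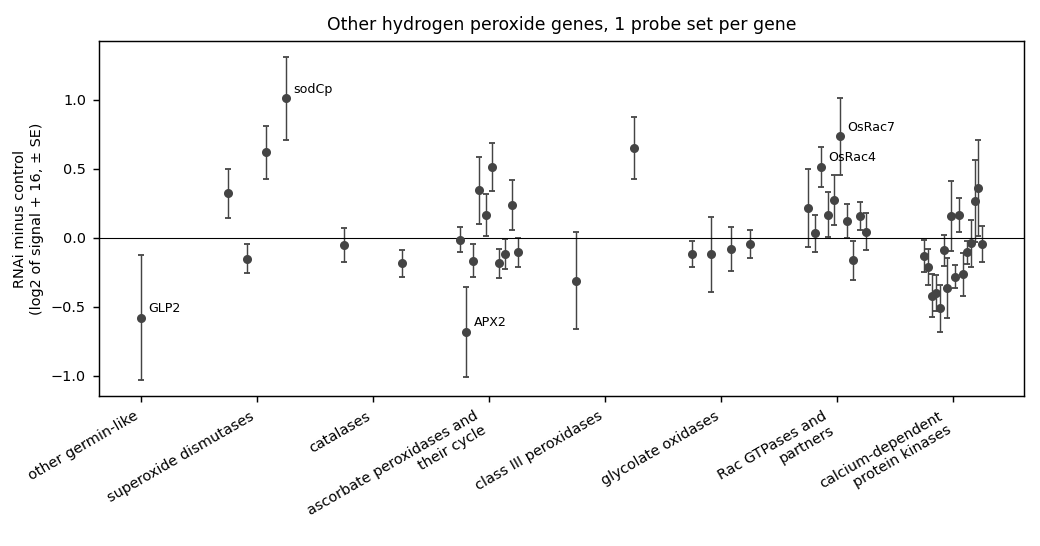
RNAi minus control (log2 of signal + 16, ± SE, 6 arrays) for the 49 tested genes around hydrogen peroxide that are no members, 1 probe set per gene, grouped by list. The differences run from -0.68 (APX2, -0.21 without RNAi replicate 1) to 1.01 (sodCp, 1.42 without it), and none passed an adjusted p of 0.05.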

How the data were processed

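The deposited intensity values, 1 per probe set and array on a linear scale, came from GCOS 1.2 per the submitters' processing notes, which do not give the probe summary or the scaling. Their trimmed means (2% off each end) were 99.9 to 500.1, so every array was rescaled to 500, 16 was added and log2 taken, which understates changes of low genes. Wash and scanner records served only to find wash runs. The 57381 probe sets include 187 for controls and reporters; these and the lower 50% of the others by mean log2 signal were not tested, which left 28597. Groups and replicate numbers came from the titles, and p-values rest on the spread among these samples only, which may be technical. The test was limma 3.58.1 under R 4.3.3, two-sided, by eBayes with a mean-variance trend, and Benjamini-Hochberg adjustment ran over all tested probe sets. Alternatives were the scaling, the 16 added, the filter, the replicate block, each array left out, no trend, SAM (named by the submitters) and another probe set per gene. The steps were tested on simulated data. OsSRT1 has no named probe set and was not analysed here. Names came from the platform annotation and a RefSeq gene table. The members and lists were chosen with earlier results of these data known. The text names all members, from each list up to 4 genes with the smallest adjusted p and any past 0.05, and the 3 named genes nearest in pattern to RBOHB and to the germin-like gene of highest signal. Each non-member gene was read from its brightest probe set. OsRac1, the second probe sets of GLP2, OsRac4 and CPK13 and the other probe sets of CatB and catA were added after their values were seen.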

Additional observations from a re-analysis of the deposited data

How the results depend on the processing

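The count of member probe sets past the threshold was 0 in all 13 alternatives run for it. Of the 10 tested members, 7 kept the sign of their difference when each array was left out and 3 (GER2, GER5 and GER7) did not. As deposited, control replicate 3 was on a larger scale, and without rescaling the median log2 difference of the tested probe sets was -0.52; GER1 then stood at 0.04, RBOHB at -1.02 and GER2 at -0.28. The count over all probe sets was 601, and 37 without rescaling, 394 with no filter, 303 without the trend and 233 to 902 when each array was left out (902 without RNAi replicate 1). The count of other genes was 0, with 0 to 3 when each array was left out (3 without RNAi replicate 1, namely sodCp, SODCC.2 and OsRac4, the last at 0.62, adjusted p = 0.0399), and 1 (OsRac4) with the probe set of lowest mean signal. Differences that changed sign, none of them past the threshold, were these. Over leaving out each array, the values ran from -0.90 to 0.059 for GLP2, -0.149 to 0.087 for catA, -0.69 to 0.040 for PRX112, -0.190 to 0.066 for GLO4 and -0.39 to 0.19 for GLO3, positive without RNAi replicate 1, and from -0.137 (without RNAi replicate 1) to 0.028 (without RNAi replicate 2) for GLO5. With quantile normalization they were catA (0.032), GLO1 (0.020) and GLO5 (0.086). Without rescaling they were SODCC.2 (-0.022), SODCC.1 (-0.31), APX7 (-0.12), APX5 (-0.27), OsRac4 (-0.12), RACK1A (-0.47) and OsRac6 (-0.36). Of the tested members, GER2, GER5 (-0.54), GER8 set 2 (-0.27) and GER8 set 3 (-0.18) also fell below 0 without rescaling. That left 1 tested member probe set above 0 and 9 below. The cause was not tested. With the replicate number as a replicate block, 424 probe sets and 0 members passed; deviations of arrays with the same number correlated at -0.05 to 0.01, and 1 of 6 arrays correlated best with its own number, so the numbers were not taken to pair the samples. Arrays with the same number also share a fluidics module (modules 1, 2 and 3), so a block for module is the same fit. The number of arrays limits the precision, and GER3 lay below the signal filter.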
